A study of Mus musculus with 17 samples.

Results

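The PYHIN genes studied here were Aim2, Ifi203, Ifi204, Ifi205, Ifi207, Ifi208, Ifi209, Ifi211, Ifi213 and Mndal, which lie together on mouse chromosome 1. They were chosen by name, as the rows of the count tables whose Ensembl identifiers carry these symbols, and all 10 were found among the 55421 genes listed. RNA was sequenced from colon tumors that had been induced in mice with azoxymethane and dextran sulfate sodium (AOM-DSS). There were 3 libraries from Tyk2+/+ mice (Tyk2wt in the labels), 3 from Tyk2Δ/Δ mice (Tyk2KO), 7 from Tyk2fl/fl mice (Tyk2fl) and 4 from Tyk2ΔIEC mice (Tyk2DIEC). Tyk2Δ/Δ mice carry the deleted allele in the germline, made with a CMV-cre deleter strain that was then crossed out, and were bred with their Tyk2+/+ controls from Tyk2Δ/+ parents. Tyk2ΔIEC mice are Tyk2fl/fl mice with a Villin-cre transgene, which drives deletion in the intestinal epithelium, and the Tyk2fl/fl controls were cre-negative. All 4 groups received AOM-DSS, so no normal colon was measured here. Ages of the sequenced mice are not given in the sources used here, nor whether each library came from a separate mouse, and p-values then measure only the spread between these libraries.

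PYHIN proteins usually join an N-terminal pyrin domain, which binds other pyrin domains, to HIN domains, which bind double-stranded DNA. AIM2 senses DNA in the cytosol and assembles an inflammasome with the adaptor ASC (Pycard) and caspase-1, and mice without Aim2 are known to develop more colon tumors after AOM-DSS. The Ifi genes are named as interferon-inducible: TYK2 is a kinase of the receptors for type I interferon, interleukin-12 and interleukin-23, and transcription factors activated downstream of it bind the interferon-stimulated response element (ISRE).

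The members filled a stretch of 680.9 kb, chr1:173350879-174031810 (GRCm38, GENCODE release 21). On the plus strand lay Aim2 at chr1:173350879-173466040, Ifi209 at chr1:173630917-173647928 and Ifi208 at chr1:173673675-173698395. The other 7 lay on the minus strand, with Ifi213 at chr1:173566283-173599274, Ifi207 at chr1:173723427-173741747, Ifi204 at chr1:173747293-173766943 and Mndal at chr1:173849126-173942491. Within the span of Mndal lay Ifi211 at chr1:173896345-173913046 and most of Ifi203 at chr1:173920407-173942672, and Ifi205 closed the row at chr1:174011998-174031810. No member shared exon sequence with a gene on the opposite strand, and 155 bp of Mndal exons (4.27%) were shared with Ifi203 or a further gene on the same strand.

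Several members resembled each other closely in their promoters. RefSeq windows of GRCm38.p6, with 250 bases before and 50 after each start site, were at hand for 9 members in 11 windows, and Ifi204 had none. The first window of Mndal was 90.7% identical to the second window of Ifi203 over their alignment, while the other pairings of their windows were 49.3% to 52.2% identical. The window of Ifi213 was 89.5% identical to that of Ifi208, and that of Ifi207 85.9% identical to that of Ifi211. The core letters of the ISRE, GAAA and GAAA with any NN between them, on either strand, were present in 7 of these 9 members and in 3.44% of all 32851 windows of this length. Members were counted by gene, with either of 2 windows enough for Ifi203 and Mndal, and the first window of Ifi203 held no match. Members with such similar windows are not separate instances, so both shares are not directly comparable. The 30-base stretches around these letters are shown because they differ so little between members (capitals mark the ISRE core, strand of the gene, 5′ to 3′).
Ifi203, chr1:173942518-173942527: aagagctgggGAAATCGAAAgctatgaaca
Mndal, chr1:173880214-173880223: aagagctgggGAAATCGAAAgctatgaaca
Ifi213, chr1:173599336-173599345: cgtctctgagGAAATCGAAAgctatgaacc
Ifi208, chr1:173673607-173673616: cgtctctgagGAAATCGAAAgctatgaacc
Ifi207, chr1:173741841-173741850: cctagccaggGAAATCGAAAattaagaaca
Ifi211, chr1:173913074-173913083: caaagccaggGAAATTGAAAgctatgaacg
Ifi205, chr1:174031880-174031889: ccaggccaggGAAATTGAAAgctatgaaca
The coordinates are those of the 10 capitals. The exact form GAAATCGAAA was held by 5 members and by 0.0487% of all windows, and GAAATTGAAA by 2 members and 0.116% of windows. In 6 of the 7 members 25 to 63 bases separated the capitals from the start, and in Ifi205 124 bases did. Mndal held another match on the opposite strand in its second window, as did Ifi205 downstream of its start.

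Aim2 and Ifi209 were the members without these letters in the window. The RefSeq start of Aim2 lies inside the gene span given above, as do those of Mndal, and the outer end of the Aim2 span was not searched. The upstream stretches of Aim2 and Ifi209, from 250 to 51 bases before the start, are given here for comparison with the sites above.
Aim2, chr1:173420354-173420553, plus strand: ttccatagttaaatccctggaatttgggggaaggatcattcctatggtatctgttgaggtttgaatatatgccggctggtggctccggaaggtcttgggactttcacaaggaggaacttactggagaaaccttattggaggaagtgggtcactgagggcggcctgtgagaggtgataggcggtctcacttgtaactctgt
Ifi209, chr1:173630609-173630808, plus strand: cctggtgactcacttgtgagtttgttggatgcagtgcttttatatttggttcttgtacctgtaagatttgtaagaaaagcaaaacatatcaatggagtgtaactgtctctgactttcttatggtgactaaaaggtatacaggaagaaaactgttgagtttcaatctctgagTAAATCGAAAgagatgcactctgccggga
The capitals in Ifi209 mark the 10 bases that align with the ISRE core of Ifi214, another PYHIN gene of the locus, whose window was 95.3% identical. They carry 1 substitution, G1T, counted from 1 at the first base of the core, with the base of Ifi214 first. The letters of the γ-interferon activated site, TTCNNNGAA, read the same on both strands in their fixed bases, were in no member window and in 8.30% of all windows. Such matches describe the letters of these windows and were not measured as binding sites.

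**Figure D1:**
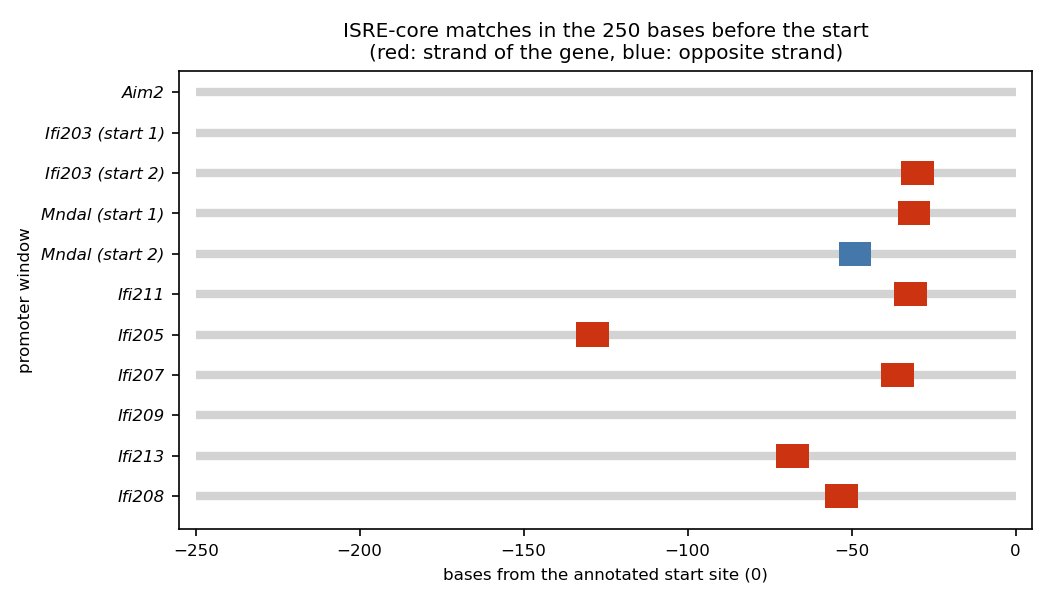
Position of each match to the ISRE core (colored block of 10 bases) in the 250 bases before the annotated start, in bases from the start on the x axis, with 1 row for each RefSeq window of a member. Aim2, Ifi209 and the first window of Ifi203 hold no block, and Ifi205 holds its block farthest from the start.

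Near-identical sequence also limited the counting. STAR's gene counts take uniquely aligned reads, so a read from a stretch that another gene also carries is lost to both. Of all 75-base stretches in the transcripts of a member, the share found unchanged in a transcript of another gene was 0% for Aim2, 2.80% for Ifi207, 5.71% for Ifi203 and 8.07% for Ifi213. It was 11.1% for Mndal, 11.8% for Ifi208, 13.2% for Ifi204, 16.6% for Ifi205 and 23.1% for Ifi209, the last shared with Ifi214. Ifi211 shared 63.6%, mostly with Ifi205, so its counts rest on a minor share of its transcript and are uncertain, as is the split between these genes.

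Libraries held 19129696 to 21707373 counts on genes in the Tyk2+/+, Tyk2Δ/Δ and Tyk2ΔIEC groups and 29777763 to 35427965 in the Tyk2fl/fl group. Tyk2 counts of the whole gene do not check the deletion, since the floxed part includes exon 3 and transcripts without it are still counted, and the level of the whole gene was 55.5 to 57.7 CPM (counts scaled to library size with the TMM factors of edgeR) in Tyk2+/+ and 58.0 to 59.0 in Tyk2Δ/Δ libraries. The authors report reads of this exon as missing from Tyk2Δ/Δ tumors and from most, but not all, Tyk2ΔIEC tumors. The 7 epithelial markers were present in all libraries, at a summed 6340 to 10440 CPM. Tyk2fl/fl replicates 1 to 3 stood apart in Xist, with 40656 to 45446 counts against at most 106 in the other 14 libraries, so comparisons with that group were also made with replicates 4 to 7 as the only controls. The epithelial comparison then called no member either.

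Aim2 was by far the most abundant member, and the others were rare. Per kb of exon, Aim2 stood at 34.5 ± 1.18 CPM per kb (SD, n = 3) in Tyk2+/+ tumors, followed by Mndal at 1.58 ± 0.156, Ifi204 at 1.29 ± 0.158, Ifi207 at 1.20 ± 0.148, Ifi209 at 1.02 ± 0.507 and Ifi203 at 1.02 ± 0.131. Ifi211 stood at 0.757 ± 0.226, Ifi205 at 0.435 ± 0.0913, Ifi213 at 0.124 ± 0.0390 and Ifi208 at 0.0686 ± 0.0201 CPM per kb. From Mndal to Ifi211 each gene lay within the sum of both SDs of its neighbor in this order, as did Ifi213 and Ifi208 at the lower end. Aim2 lay far above Mndal, and Ifi205 lay above Ifi213 by more than their SDs. Aim2 was first and Ifi208 last in each genotype. Exon lengths include stretches shared with other genes, whose reads are lost. The place of Ifi211, with 63.6% of its stretches shared, is therefore uncertain in this order.

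The question of the germline comparison was what RNA tumors lose or gain when no cell has TYK2. Of the 10 members, 9 passed the low-count filter, and 5 of these 9 were lower in Tyk2Δ/Δ than in Tyk2+/+ tumors, namely Ifi203, Ifi205, Ifi207, Ifi209 and Mndal, with no member higher (edgeR quasi-likelihood test, Benjamini-Hochberg adjusted p under 0.05 over 16179 genes). Among all genes tested, 2.13% were called lower and 0.668% higher. With a change of over 2-fold as a further condition, 4 members were called, against a background of 1.21%. In each of the 9 tested members the 3 Tyk2Δ/Δ libraries lay below the 3 Tyk2+/+ libraries, which held for 14.0% of all genes tested. With library totals in place of TMM this count was 8, since Aim2 then overlapped. The 4 members Ifi205, Ifi209, Ifi211 and Ifi213 had under 10 counts in a Tyk2Δ/Δ library and passed the filter through the Tyk2+/+ group, so their counts here are no support. Of the 5 others, Ifi203, Ifi207 and Mndal were called (3 of 5), and the median log2 fold change of these 5 was -1.09, against 0.00 over all genes tested.

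Ifi209, whose protein is among the less studied of the family, had the lowest ratio of the 9 tested members. It had 5, 9 and 10 counts in the Tyk2Δ/Δ libraries and passed the filter through the Tyk2+/+ group, so this rank is no support. Its levels were 3.21, 2.05 and 5.58 CPM in Tyk2+/+ replicates 1 to 3 and 0.231, 0.447 and 0.470 CPM in Tyk2Δ/Δ replicates 1 to 3. The highest Tyk2Δ/Δ library was far below the lowest control, although the controls themselves were widely spread. Ifi209 fell by 3.23 on the log2 scale, a 9.41-fold lower level (SE 0.46, edgeR adjusted p = 0.0141).

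Ifi205, also known as p205, was at 1.39, 1.95 and 2.12 CPM in Tyk2+/+ and at 0.0462, 0.347 and 0.423 CPM in Tyk2Δ/Δ tumors. The lowest of these, in Tyk2Δ/Δ replicate 1, was a single count. Ifi205 fell by 2.73 on the log2 scale (SE 0.49, edgeR adjusted p = 0.0318).

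Ifi203, also known as p203, has the same ISRE stretch as Mndal in the sequences above. It was at 7.09, 5.85 and 7.55 CPM in Tyk2+/+ and at 2.31, 1.59 and 2.30 CPM in Tyk2Δ/Δ tumors, 114 to 157 counts against 32 to 50. Both groups were narrow and lay well apart. Ifi203 fell by 1.73 on the log2 scale, 3.31-fold (SE 0.21, edgeR adjusted p = 0.00697).

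Mndal, named for its likeness to the human myeloid cell nuclear differentiation antigen, was at 5.08, 6.05 and 6.06 CPM in Tyk2+/+ and 1.43, 1.98 and 2.87 CPM in Tyk2Δ/Δ tumors. It fell by 1.46 on the log2 scale (SE 0.25, edgeR adjusted p = 0.0289). Ifi207, also known as p207, was at 4.36, 4.41 and 3.51 CPM against 2.13, 2.13 and 1.93 CPM. Its drop was the smallest of the 5, at 0.99 on the log2 scale or 1.99-fold (SE 0.19, edgeR adjusted p = 0.0358), and the Tyk2Δ/Δ libraries were nearly equal.

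Ifi213, Ifi211 and Ifi204 did not pass the test. Ifi213, whose ISRE stretch is that of Ifi208, had 14, 14 and 24 counts in Tyk2+/+ and 0, 2 and 6 counts in Tyk2Δ/Δ tumors (log2 fold change -2.69, 95% interval -4.22 to -1.16, edgeR adjusted p = 0.0747). It passed in the fit of all 17 libraries (edgeR adjusted p = 0.0454), by DESeq2 (0.0248) and with no low-count filter (0.0243). Ifi211 had 21, 35 and 26 counts against 1, 10 and 14 (log2 fold change -1.75, 95% interval -3.07 to -0.43, edgeR adjusted p = 0.129). Ifi204, a DNA sensor often set beside human IFI16, was at 4.89, 3.95 and 4.96 CPM against 0.647, 2.53 and 3.34 CPM. Here replicate 1 was far below the other 2 Tyk2Δ/Δ libraries, which came close to the lowest control (log2 fold change -1.09, 95% interval -2.14 to -0.04, edgeR adjusted p = 0.206). These are single-gene intervals, and those of Ifi204 and Ifi211 reach from large drops to small ones. Ifi208 was too rare for the test, with 5, 8 and 9 counts in Tyk2+/+ and 0, 0 and 1 in Tyk2Δ/Δ libraries.

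Aim2, the inflammasome sensor, had the smallest change of the tested members. It was at 122, 116 and 125 CPM in Tyk2+/+ and at 116, 111 and 116 CPM in Tyk2Δ/Δ tumors, with the groups nearly touching. Its log2 fold change was -0.09 (SE 0.06, 95% interval -0.22 to 0.05, edgeR adjusted p = 0.408), an interval that holds no drop as large as that of any of the 5 members called. The upper ends of their intervals were -2.18 for Ifi209, -1.60 for Ifi205, -1.24 for Ifi203, -0.87 for Mndal and -0.57 for Ifi207. A test of Aim2 against the other members was not made.

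**Figure D2:**
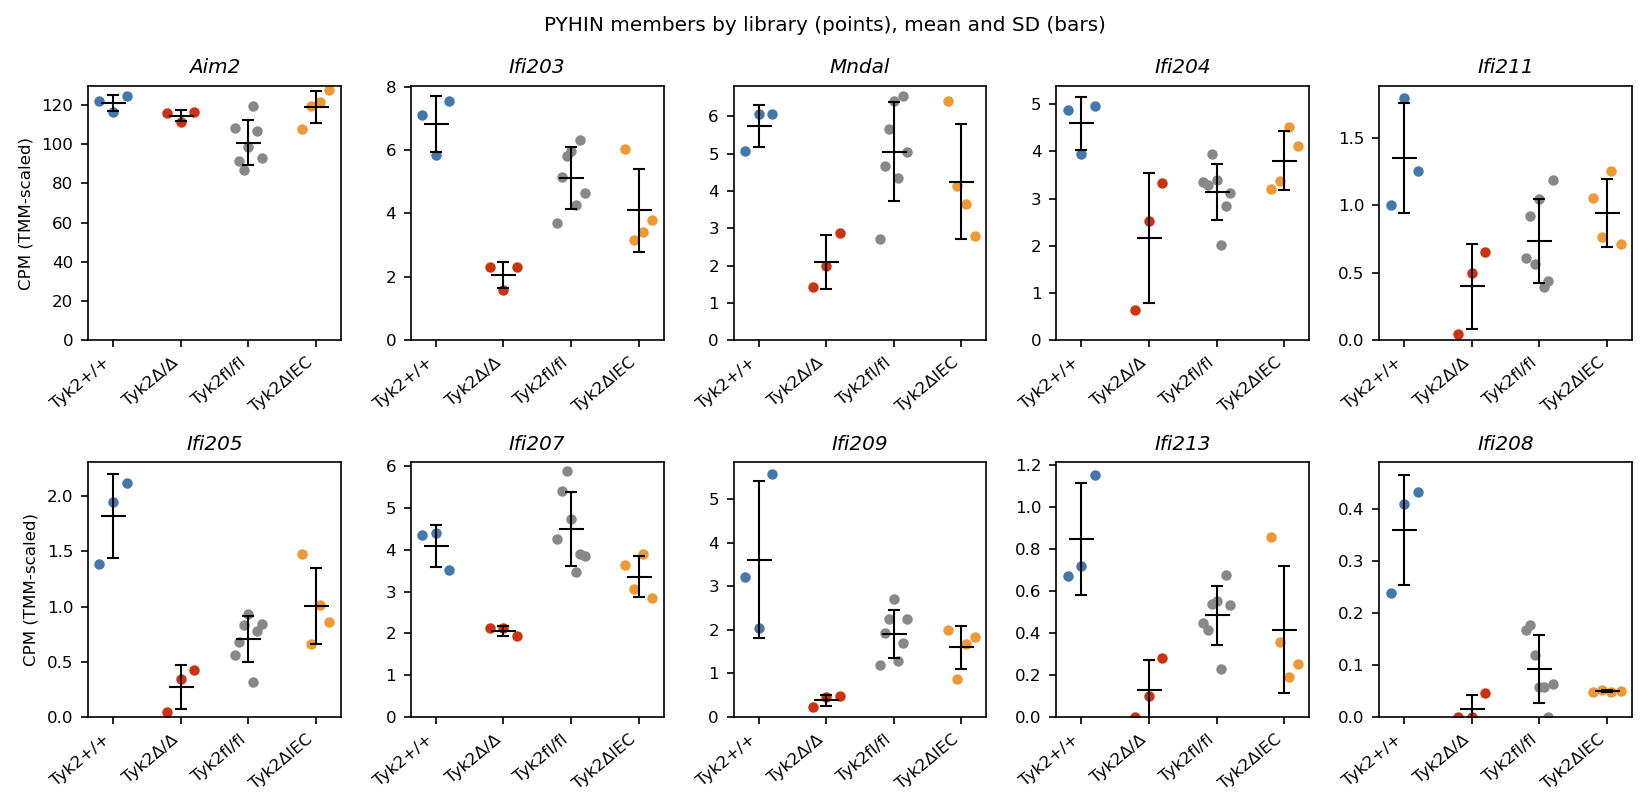
Level of each member in every library (points, left to right by replicate number) with mean and SD (bars), in CPM on a linear y axis that starts at 0 and differs between panels, by genotype on the x axis. The 3 Tyk2Δ/Δ libraries sit at the bottom of their panels for Ifi203, Ifi207 and Ifi209, whereas Aim2 stays between 86.9 and 128 CPM in all 17 libraries.

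How firmly each of these calls stood was uneven with 3 libraries a side. Ifi203 kept an adjusted p under 0.05 with any single library left out, at 0.0324 or less. Ifi209 lost it without Tyk2Δ/Δ replicate 2 (edgeR adjusted p = 0.0642). Ifi205 lost it without Tyk2+/+ replicate 3 (0.119), Tyk2Δ/Δ replicate 2 (0.118) and, by a narrow margin, without Tyk2Δ/Δ replicate 3, and Mndal without Tyk2+/+ replicate 3 (0.110), Tyk2Δ/Δ replicate 1 (0.0602) or Tyk2Δ/Δ replicate 2 (0.125). Ifi207 lost it whichever library was left out, with adjusted p between 0.0568 and 0.134. No fold change of these 5 members turned its sign.

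**Figure D3:**
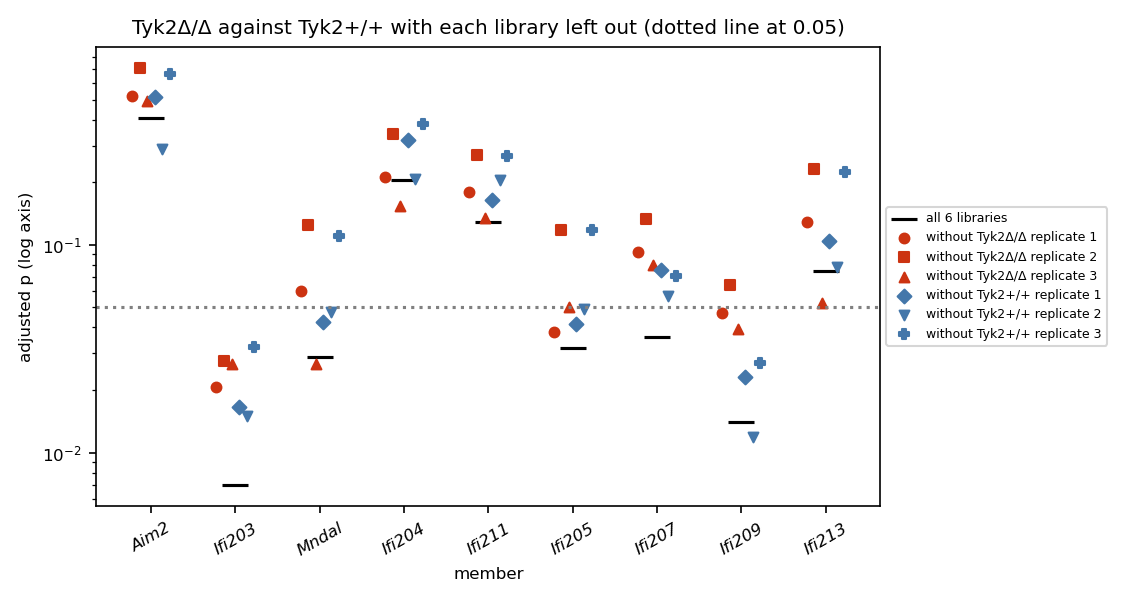
Adjusted p (log y axis) of each tested member in Tyk2Δ/Δ against Tyk2+/+ tumors with all 6 libraries (black bars) and with each library left out (symbols). Every symbol of Ifi203 lies under the dotted line at 0.05, 1 symbol of Ifi209 lies above it, and all symbols of Ifi207 do.

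Some libraries ran low or high across the family. Summed over the 9 members other than Aim2, the level was 27.9, 27.2 and 32.6 CPM in Tyk2+/+ replicates 1 to 3 and 6.84, 9.62 and 12.3 CPM in Tyk2Δ/Δ replicates 1 to 3. Tyk2Δ/Δ replicate 1 was the lowest of its group in 6 of 9 tested members and replicate 3 the highest in 7, while Tyk2+/+ replicate 3 was the highest of its group in 7. Without Tyk2Δ/Δ replicate 1, the members called were Ifi203, Ifi205 and Ifi209.

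The epithelial comparison asked what changes when TYK2 is lost from the epithelium alone. None of the 9 tested members was called in Tyk2ΔIEC against Tyk2fl/fl tumors by edgeR (0 of 9), where 9.71% of 17668 genes were called lower and 10.2% higher. DESeq2 and limma voom also called 0 members, and 2 members had an unadjusted p under 0.05 in edgeR, Aim2 and Ifi207. The log2 fold changes ran from -0.42 to 0.51 with a median of -0.21, against 0.00 for all genes, and 5 of 9 were negative. No member had groups that did not overlap, which 7.81% of genes had in the lower and 7.73% in the higher direction.

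Among the 5 members that were lower with the germline deletion, Ifi203 ranged from 3.71 to 6.31 CPM (median 5.16) in 7 Tyk2fl/fl libraries and was at 6.02, 3.17, 3.42 and 3.81 CPM in Tyk2ΔIEC replicates 1 to 4. Replicate 1 lay among the higher controls and 2 of the 4 lay below all controls. The log2 fold change was -0.32 (95% interval -0.76 to 0.12), an interval that reaches no 2-fold drop. Without Tyk2ΔIEC replicate 1 it was -0.57 (SE 0.19, edgeR adjusted p = 0.0601).

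Mndal ran from 2.70 to 6.55 CPM (median 5.04) in controls and was at 6.40, 4.13, 3.66 and 2.79 CPM in Tyk2ΔIEC tumors (log2 fold change -0.25, 95% interval -0.81 to 0.31). The value for Mndal was -0.41 with Tyk2fl/fl replicates 4 to 7 as the only controls, and ran from -0.52 without Tyk2ΔIEC replicate 1 to -0.11 without Tyk2ΔIEC replicate 4. Ifi209 ran from 1.20 to 2.70 CPM (median 1.93) and was at 2.01, 0.868, 1.68 and 1.83 CPM (log2 fold change -0.25, 95% interval -0.85 to 0.35). Both had overlapping groups, with a single Tyk2ΔIEC library of Ifi209 under the controls.

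Ifi205 ran from 0.312 to 0.929 CPM (median 0.780) in controls and was at 1.48, 0.664, 1.01 and 0.863 CPM, with replicate 1 highest (log2 fold change 0.51, 95% interval -0.14 to 1.17, edgeR adjusted p = 0.254). Ifi207 ran from 3.46 to 5.89 CPM (median 4.26) in controls and was at 3.63, 3.06, 3.90 and 2.84 CPM (log2 fold change -0.42, 95% interval -0.80 to -0.04, edgeR adjusted p = 0.110), and the value was -0.26 with Tyk2fl/fl replicates 4 to 7 as the only controls. The groups of both genes overlapped.

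For Ifi204 the log2 fold change was 0.28 (95% interval -0.12 to 0.67) and for Ifi211 0.36 (95% interval -0.36 to 1.07). Ifi213 was at 0.860 CPM in Tyk2ΔIEC replicate 1 and at 0.192 to 0.357 CPM in the other 3, across the control range of 0.227 to 0.678 CPM (log2 fold change -0.21, 95% interval -1.08 to 0.67). The counts of Ifi213 and Ifi211 were low, 4 to 18 and 14 to 26 in Tyk2ΔIEC libraries, and a 2-fold change of either lay inside its interval. Ifi208 had 1 count in each Tyk2ΔIEC library and 0 to 6 in Tyk2fl/fl libraries.

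Aim2, the sensor, was at 107.8, 119, 121 and 128 CPM in Tyk2ΔIEC tumors and ran from 86.9 to 119.6 CPM (median 98.4) in controls. Replicates 3 and 4 lay above all controls, of which Tyk2fl/fl replicate 5 was the highest, and the groups overlapped. The log2 fold change was 0.24 (SE 0.09, 95% interval 0.06 to 0.43, edgeR adjusted p = 0.0654). The adjusted p ran from 0.0250 to 0.197 over the alternatives. It was under 0.05 with all 17 libraries in 1 fit, with library totals alone and without Tyk2fl/fl replicate 5, and 0.189 with Tyk2fl/fl replicates 4 to 7 as the only controls (log2 fold change 0.17).

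**Figure D4:**
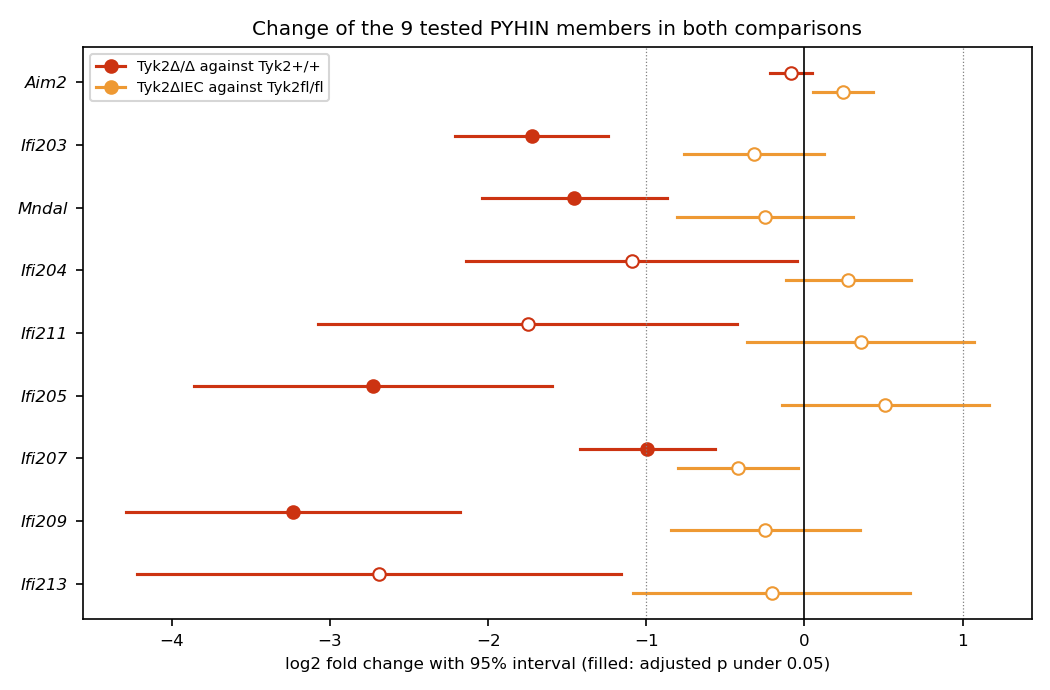
Log2 fold change (x axis) of the 9 tested members (y axis) with its 95% interval in both comparisons, filled where the adjusted p was under 0.05. The 5 filled points all belong to the germline comparison, and every point of the epithelial comparison lies between -0.42 and 0.51.

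Whether the changes differ was tested directly, as the germline change minus the epithelial change in 1 fit of all 17 libraries. The depth gap of the epithelial comparison enters this test as well. Ifi203, Ifi205 and Ifi209 passed (edgeR, adjusted p under 0.05), each with a lower value in the germline comparison, where 5.23% of 17252 genes were called in that direction. Ifi205 and Ifi209, like Ifi211 and Ifi213, had under 10 counts in a Tyk2Δ/Δ library. They passed the filter through other groups, so their results here are no support. The difference was -2.98 on the log2 scale for Ifi209 (SE 0.54, edgeR adjusted p = 0.00311), -3.24 for Ifi205 (SE 0.61, adjusted p = 0.00412) and -1.40 for Ifi203 (SE 0.32, adjusted p = 0.0136). Mndal (-1.20, adjusted p = 0.0830) and Ifi207 (-0.57, adjusted p = 0.197) did not pass, although both passed in the germline comparison alone. All 9 tested members had a negative difference and an unadjusted p under 0.05, as did 13.1% of genes. Aim2 was among them, with -0.32 (95% interval -0.58 to -0.06, adjusted p = 0.119). Its log2 fold change was 0.27 in Tyk2+/+ against Tyk2fl/fl tumors and -0.06 in Tyk2Δ/Δ against Tyk2ΔIEC tumors. Without Tyk2Δ/Δ replicate 2, Ifi203 did not pass (adjusted p = 0.0566).

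The control groups themselves were not level, and experiment and genotype cannot be told apart between them. Tyk2+/+ tumors were higher than Tyk2fl/fl tumors in Ifi205 (log2 fold change 1.36, SE 0.35, edgeR adjusted p = 0.0196) and Aim2 (0.27, SE 0.08, adjusted p = 0.0419), 2 members against 7.37% of 17252 genes called higher. Ifi205 was the member over 2-fold there, as were 1.41% of genes. With Tyk2fl/fl replicates 4 to 7 alone, or without Tyk2+/+ replicate 3, no member was called there. Tyk2Δ/Δ tumors were lower than Tyk2fl/fl tumors in Ifi203, Ifi207, Ifi209 and Mndal, with log2 fold changes of -1.30, -1.12, -2.30 and -1.27 (4 members, background 5.81%). Tyk2Δ/Δ tumors were also lower than Tyk2ΔIEC tumors in Ifi203 (-0.99, edgeR adjusted p = 0.0479) and Ifi209 (-2.05, adjusted p = 0.0223), against a background of 1.74%. Ifi209 was over 2-fold lower, as were 0.574% of genes, and neither of the pair was called without Tyk2Δ/Δ replicate 1, Tyk2Δ/Δ replicate 2 or Tyk2ΔIEC replicate 3. Ifi209 had 5, 9 and 10 counts in the Tyk2Δ/Δ libraries and passed the filter through other groups. Its results against Tyk2fl/fl and Tyk2ΔIEC tumors are therefore no support. Between Tyk2ΔIEC and Tyk2+/+ tumors edgeR called 0 members, with 2 at an unadjusted p under 0.05 (Ifi203 and Ifi209), 2 called by DESeq2 and 0 by limma voom, where 1.70% of genes were called lower and 1.25% higher. In order of mean level, Ifi203, Ifi204, Ifi205, Ifi209, Ifi211, Ifi213 and Mndal were highest in Tyk2+/+ and lowest in Tyk2Δ/Δ tumors. Ifi207 was highest in Tyk2fl/fl and Aim2 lowest there.

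Across the 17 libraries of all genotypes, pairs among the 8 tested members other than Aim2 had Pearson correlations of log2 CPM from 0.48 (Ifi204 and Ifi207) to 0.90 (Ifi205 and Ifi211), and pairs with Aim2 ran from -0.55 (Ifi207) to 0.01 (Ifi204). These are descriptions over libraries that share genotype, experiment and depth, so the differences between genotypes enter them. Ifi205 and Ifi211 also share much of their sequence. The genes outside the family whose profile was most like the mean profile of the 9 tested members were Bst2, which tethers budding virus (r = 0.92), Ms4a4c (0.91), the complement gene C2 (0.91), Gvin1 (0.90) and Gm8995 (0.90), likewise over 17 libraries.

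**Figure D5:**
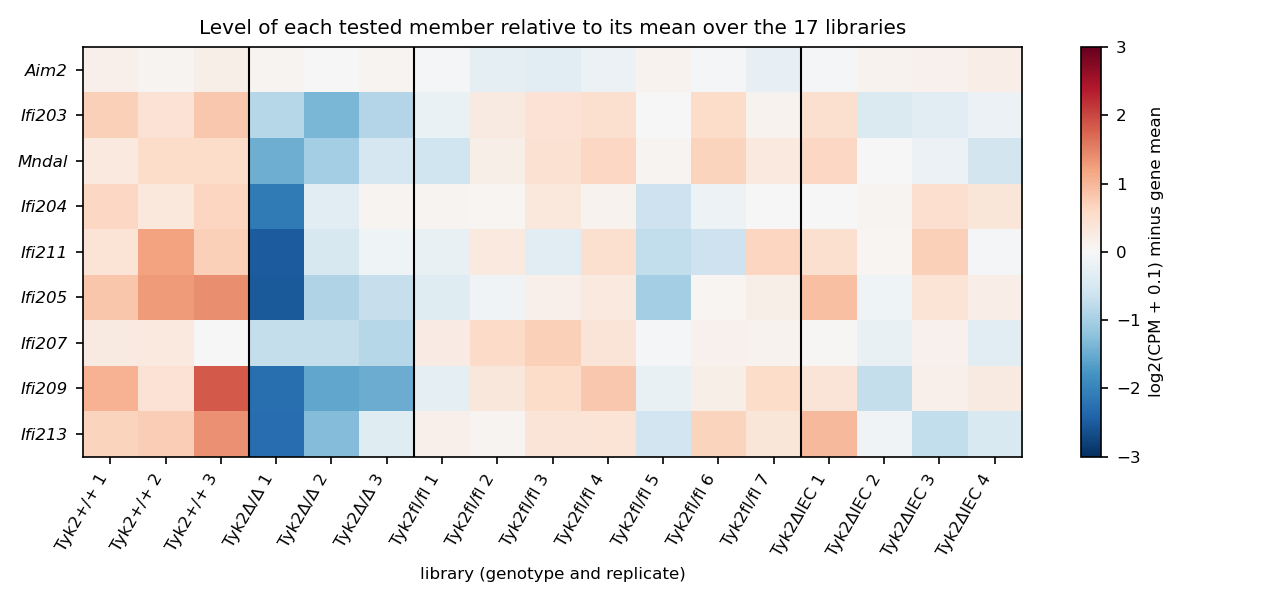
Level of each tested member (rows) in each library (columns), as log2(CPM + 0.1) minus the mean of that gene over the 17 libraries, red above and blue below it. Tyk2Δ/Δ replicate 1 is the darkest blue column for Ifi204, Ifi205, Ifi209, Ifi211 and Ifi213, and the row of Aim2 is nearly white.

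The 3 further PYHIN genes of the locus were rare. Ifi206 had 15, 5 and 21 counts in Tyk2+/+ and 0, 3 and 2 in Tyk2Δ/Δ libraries, too few for the germline test. Its difference between both changes was -2.82 on the log2 scale (SE 0.76, edgeR adjusted p = 0.0323). Ifi206 passed the filter of that fit through other groups, so this result is no support. Ifi202b ranged from 0 to 45 counts over all libraries and followed no genotype (log2 fold change 1.53 in Tyk2Δ/Δ tumors, 95% interval -0.97 to 4.03). Within Tyk2fl/fl it had 7, 3 and 45 counts in replicates 1 to 3, which stood apart in Xist, and 0 in replicates 4 to 7. Ifi214 had at most 8 counts in any library and 0 in the Tyk2Δ/Δ libraries. Of 40 other genes within 500 kb on either side, 5 were tested in the germline comparison and 0 called.

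Pycard, Cgas and Tmem173 are named here for their roles, after their values were seen. Pycard, which links AIM2 to caspase-1, had a log2 fold change of -0.19 in Tyk2Δ/Δ (edgeR adjusted p = 0.207) and -0.16 in Tyk2ΔIEC tumors (adjusted p = 0.506). Beside 2.13% of all genes tested in the germline comparison, a list of 22 DNA sensing and inflammasome genes had 4 of 21 tested lower and 0 higher in Tyk2Δ/Δ tumors (edgeR, adjusted p under 0.05). These were the nucleic acid sensor Zbp1 (log2 fold change -1.93), the inflammatory caspases Casp4 (-1.41) and Casp1 (-0.43), and Casp8 (-0.30), a caspase of cell death signaling. In Tyk2ΔIEC tumors, where 10.2% of all genes tested were called higher, 3 of 21 were higher and 0 lower: Zbp1 (0.93), Casp1 (0.50) and the kinase Tbk1 (0.28). The share called higher is near that of all genes, so it is not read as a result about the list. The DNA sensor Cgas and its adaptor Tmem173 (STING) passed in neither comparison.

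Of 14 interferon signaling genes, 4 of 12 tested were lower in Tyk2Δ/Δ tumors, against 2.13% of all genes, and 0 higher, against 0.668%. They were the transcription factors Irf7 at -1.54, Irf9 at -0.73, Stat2 at -0.69 and Irf1 at -0.60 (log2 fold changes). In Tyk2ΔIEC tumors 4 of 12 were higher, Irf7 (0.62), Irf1 (0.48), Stat2 (0.38) and Jak2 (0.32), against 10.2% of all genes, and the receptor chain Ifnar2 was lower (-0.29), against 9.71%. The median log2 fold change of this list was -0.13 in Tyk2Δ/Δ and 0.13 in Tyk2ΔIEC tumors.

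In tumor tissue, fewer cells of a type and less RNA per cell cannot be told apart, and PYHIN genes are known to be transcribed in many immune cells. In Tyk2Δ/Δ tumors, where 2.13% of all genes were called lower, 4 of 6 tested T cell markers were lower, with a summed level of 8.98 to 11.3 CPM against 19.2 to 28.9 CPM in Tyk2+/+ tumors. The NK cell sum was 1.64 to 1.99 against 3.5 to 5.69 CPM (1 of 2 lower) and the B cell sum 0.992 to 1.85 against 3.95 to 50.9 CPM (0 of 3 called). Of the macrophage and monocyte markers 0 of 10 were called (512 to 656 against 558 to 877 CPM), and of the dendritic cell markers 0 of 7 (20.5 to 25.1 against 26.2 to 33.2 CPM). Neutrophil markers were lower in 2 of 5 (57.8 to 84.2 against 115 to 142 CPM) and smooth muscle markers in 6 of 7 (109 to 175 against 240.5 to 431 CPM). Epithelial markers were called in 0 of 7, endothelial in 0 of 5 and fibroblast in 0 of 7. No marker was at 0 in every library of either group, and the part of these shifts in the PYHIN levels was not tested.

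In Tyk2ΔIEC tumors, where no PYHIN member was called, 4 of 7 fibroblast markers and 1 of 10 macrophage and monocyte markers (C1qa) were lower, beside 9.71% of all genes tested, so the macrophage and monocyte share is near that of all genes. Gzma (1 of 3 tested NK cell markers) and Tek (1 of 5 endothelial markers) were higher, beside 10.2% of all genes tested. A single call in so short a list is not read as a result about the cell type. T cell, B cell, dendritic cell, neutrophil, smooth muscle and epithelial markers gave 0 calls there.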

How the data were processed

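The values are raw read counts per gene that the authors deposited for 17 libraries, made by aligning single-end reads of directional poly(A) libraries to the mouse genome with STAR 2.6.1a (GRCm38 per the submitters' processing notes) and counting with STAR. They hold no normalization or filter. Positions come from GENCODE release 21, an earlier release than the authors used, and 55240 of 55421 identifiers matched it without their version.

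Groups follow the genotype labels. Each deletion was compared with its own controls in edgeR 4.0.16 (quasi-likelihood F test, TMM, filterByExpr with a minimum count of 10 and a total of 15, Benjamini-Hochberg over all genes tested, called at an adjusted p under 0.05). The difference of the changes and all contrasts between experiments used 1 fit of 17 libraries. Low depth limits the rare members, as the width of their intervals shows. The code was tested on simulated data. Alternatives were DESeq2 1.42.0, limma voom 3.58.1, other scalings and filters, a replicate block, other controls and leaving out each library. The text names all 10 members, the 3 further PYHIN genes, the 5 genes most like the members' profile and, of the context lists, those with the lowest adjusted p. A gene of the interferon signaling list is not reported here and was left out of its counts and medians. Members and lists were chosen with earlier results of these data known. Same-numbered libraries did not deviate together, so numbers were not taken as pairs.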

Additional observations from a re-analysis of the deposited data

Results flagged for a closer look

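For 3 members the change with the germline deletion differed from the change with the epithelial deletion by the test of that difference. The germline change was lower by -3.24 on the log2 scale for Ifi205 (-2.73 in Tyk2Δ/Δ and 0.51 in Tyk2ΔIEC tumors against their controls), by -2.98 for Ifi209 (-3.23 and -0.25) and by -1.40 for Ifi203 (-1.73 and -0.32). Ifi205 and Ifi209 passed the low-count filter of the germline comparison through the Tyk2+/+ group. The Tyk2ΔIEC and Tyk2fl/fl libraries overlapped. The results also hold the difference between Tyk2+/+ and Tyk2fl/fl controls, whose part was not tested. Its log2 fold change was 1.36 for Ifi205 (edgeR adjusted p = 0.0196), 0.93 for Ifi209 (0.0569) and 0.42 for Ifi203 (0.187). In 20 groups of libraries checked, those of the 10 members in Tyk2fl/fl and Tyk2ΔIEC tumors, 0 had a single library standing apart.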

How the results depend on the processing

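In Tyk2Δ/Δ against Tyk2+/+ tumors 5 members were called, 4 to 7 under other scalings, filters, tests or fits, and 1 to 4 with a library left out (2 without Tyk2+/+ replicate 3, 1 without Tyk2Δ/Δ replicate 2, 3 without either other Tyk2Δ/Δ replicate). Ifi203 was called under all 14 alternatives and Ifi209 under 13. Ifi213 was called too with no low-count filter, which also called Ifi208, in the fit of all 17 libraries and by DESeq2. In Tyk2ΔIEC against Tyk2fl/fl tumors 0 members were called, and 1 (Aim2, higher) in the fit of all 17 libraries, with library totals alone and without Tyk2fl/fl replicate 5, so 0 to 1 with a library left out. The log2 fold change of Ifi213 ran from -0.85 without Tyk2ΔIEC replicate 1 to 0.014 without Tyk2ΔIEC replicate 3, the only change of sign among single members. For the difference of both changes 3 members were called, 7 by DESeq2, 5 by limma voom and 2 to 6 with a library left out (6 without Tyk2Δ/Δ replicate 3). Tyk2+/+ against Tyk2fl/fl tumors gave 2 members, 1 with library totals alone, no low-count filter, a minimum count of 30 or a fold over 2, 0 with Tyk2fl/fl replicates 4 to 7 alone and 0 to 2 with a library left out. Tyk2Δ/Δ against Tyk2fl/fl tumors gave 4, and 3 to 7 with a library left out (7 without Tyk2fl/fl replicate 5, of which 6 lower and 1, Aim2, higher). Tyk2ΔIEC against Tyk2+/+ tumors gave 0, 2 by DESeq2 and 0 to 1 with a library left out. Tyk2Δ/Δ against Tyk2ΔIEC tumors gave 2, 1 with no low-count filter, with Tyk2fl/fl replicates 4 to 7 alone or with a fold over 2, 5 by DESeq2, 0 by limma voom and 0 to 3 with a library left out. The cause of these shifts was not tested. With the replicate number as a block 4 members were called in the germline comparison (Ifi207 lost, adjusted p = 0.0826 by edgeR) and 0 in the epithelial comparison. Correlations of the deviations of same-numbered libraries ran from -0.39 to 0.08, and no library correlated best with its own number. Depth limits Ifi205, Ifi208, Ifi211 and Ifi213, each with a Tyk2Δ/Δ library at 0 or 1 counts.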
